A study of Mus musculus with 36 samples.

Results

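Brain is described here against 3 other tissues of the same groups of mice, with 9 brain arrays among the 36 arrays of the series. The brain arrays were those whose title ends in B, and they were compared with the mean of 9 liver, 9 kidney and 8 skeletal muscle arrays, all genotypes together. The labels name the tissue only as brain, with no region, and no brain region was sampled by itself. RNA of 2 to 3 female MF1 mice aged 12 weeks was pooled for each array, and each tissue held 3 pools each of XX, XpO and XmO mice. XpO mice carry a single X chromosome inherited from the father and XmO mice a single X chromosome from the mother. All of them share the random bred MF1 background and a single progenitor X chromosome. XX and XpO mice came from In(X)1H/XPaf mothers crossed with XY fathers and XmO mice from another cross, so XmO genotype and cross cannot be told apart. The muscle array of XpO pool 3 was left out, because ranking its probes by the deposited intensity and by the submitters' normalised value gave a correlation of only -0.0374.

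Each array gave a bead intensity for every probe, a short DNA sequence that captures the labelled RNA of 1 gene. Levels below are log2 intensities after quantile normalisation, on which a difference of 1 is a 2-fold change and values near the bottom of the scale are background. Median intensities before normalisation were 61.6 to 68.4 in the brain arrays and 55.6 to 70.4 in the others. The number of arrays limits the precision. The submitters gave a value in brain for 24863 of the 28885 probes tested, more than in liver (19878), kidney (23417) or muscle (21810), and 2914 of them had a value in brain alone. A blank in their table is read here as not detected. Among the brain arrays, that of XmO pool 2 stood apart, with a median correlation of 0.974 with the other brain arrays. XX pool 3 had the next lowest median, 0.985, against 0.988 to 0.99 for the remaining ones. The lowest correlation of XX pool 3, 0.982, was exceeded only by that of XmO pool 1 (0.984).

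The brain holds neurons, which signal across synapses, and glia, which feed, insulate and defend them. A neuron releases transmitter when a synaptic vesicle fuses with the membrane, driven by a complex of SNARE proteins, and the receiving cell reads it through receptors and ion channels. Oligodendrocytes wrap axons in myelin, astrocytes clear glutamate and supply fuel, and microglia are the resident macrophages. Brain runs mainly on glucose and burns little fatty acid, in contrast to liver, kidney and muscle.

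The markers of neurons, myelin and astrocytes bore out the label. Snap25, the neuronal SNARE protein (GRCm38.p6 chr2:136713439-136782428), had levels of 14.92, 15.13 and 15.33 (lowest, median and highest) in brain and no level above 7.29 in any other array. Mbp, myelin basic protein (chr18:82475091-82585637), lay at 14.23, 14.67 and 15.13 in brain, at 8.36 to 9.70 in muscle and at 6.71 or below in liver and kidney. Gfap, the intermediate filament of astrocytes (chr11:102887336-102897200), lay at 9.30, 9.95 and 11.94 in brain and had no value in the other tissues, where its signal was 6.12 at most. All brain arrays were thus above all others for these markers, with the widest spread within brain for Gfap. Brain exceeded the next tissue 440-fold for Snap25 and 57.8-fold for Mbp, both against muscle, and at least 18.3-fold for Gfap (limma, adjusted p = 3.1e-32, 9.3e-30 and 2.2e-17). Of the 2 Snap25 probes 1 passed. Defining genes of the other tissues were low in brain. The mean level of 14 hepatocyte genes was 5.85 to 5.92 in the brain arrays against 12.42 to 12.52 in liver, and 7 of them had a value in brain. That of 12 kidney tubule and glomerulus genes was 5.74 to 5.85 against 12.12 to 12.28 in kidney, with 3 in brain, and that of 15 muscle fibre genes was 6.17 to 6.54 against 13.56 to 13.65 in muscle, with 11 in brain. In pooled tissue RNA, a higher share of a cell type and more RNA per cell cannot be told apart.

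A probe was called brain-high or brain-low where brain lay more than 2-fold above or below each of the other tissues (limma's treat against a log2 difference of 1, the largest of the 3 p-values, two-sided, Benjamini-Hochberg over all probes, threshold 0.05). Brain-high probes numbered 2049 of 28885 (7.09%) and brain-low probes 582 (2.01%). The levels of all brain arrays lay above those of all 26 others for 2044 of the brain-high probes and below them for 581 of the brain-low probes. Such separation largely follows from the call itself. Over all genes (not probes), called or not, it held for 15.9% above and 12% below. With the probe of highest mean standing for each gene, 1192 of 13588 genes were brain-high (8.77%) and 411 brain-low (3.02%), and the median difference of brain from the mean of the other tissues over all genes was -0.135. Brain lay over 16-fold above the next tissue for 252 of the brain-high genes and over 64-fold for 57, while only 6 brain-low genes were over 16-fold below and 1 was over 64-fold below. The tissue next below brain was muscle for 542 brain-high genes, kidney for 410 and liver for 240. Of the 2049 brain-high probes 701 had a value in brain only, and for such probes the next tissue is the highest of background signals. Of the 557 brain-high genes with several probes, 128 were called on all of them. Probes that were not called are not marked for every gene below. Against the plain mean of the other tissues 35% of probes were higher in brain and 50.1% lower, so that most probes differed and the stricter call is used below. The balance depended on the scaling and on the probes, as 41.1% of these calls were above the mean here and 50.2% under median scaling. Over only the 17020 probes with values in all tissues, it was 34.3% under the normalisation used here. On the submitters' normalised values of these probes, over all 36 arrays, it was 65.4%. The 3 comparisons behind a call share the brain arrays. Without the brain arrays of XmO pool 2 and XX pool 3 the calls numbered 2118 high and 580 low.

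**Figure D1:**
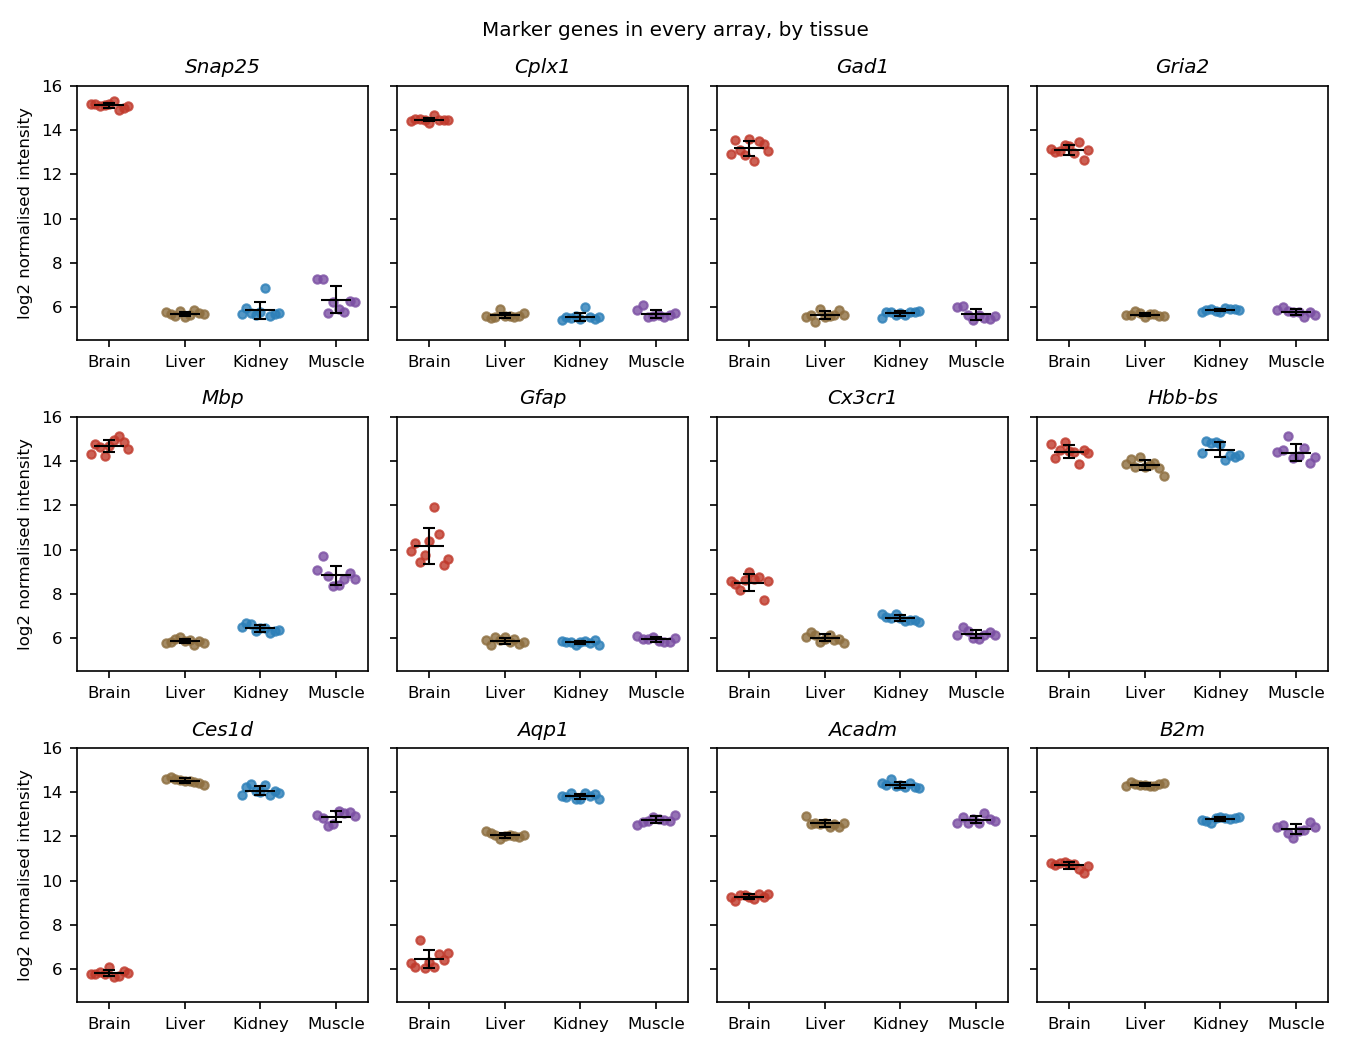
Log2 normalised intensity (vertical axis) of 12 genes in every array, with 1 point an array, by tissue, and the mean with its SD in black. Snap25, Cplx1, Gad1 and Gria2 sit above 12 in all 9 brain arrays and below 8 elsewhere, Hbb-bs overlaps between the tissues, and Ces1d, Aqp1, Acadm and B2m are lowest in brain.

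After Snap25, the gene that stood furthest above the next tissue was Cplx1. Cplx1, complexin, which clamps the SNARE complex until calcium enters, had levels of 14.35, 14.47 and 14.67 in brain and no value in the other tissues, where its signal stayed at 6.08 or below. The groups lay far apart and Cplx1 was at least 439-fold higher in brain (adjusted p = 1.2e-43). Sult4a1, a sulfotransferase of the nervous system, lay at 13.39, 13.84 and 13.92 in brain and at 6.24 or below elsewhere, a 245-fold difference. Rasgrf1, a calcium-responsive exchange factor for Ras, was 209-fold above the next tissue, and Celf4, an RNA-binding protein of neurons, 199-fold. Rtn1, a reticulon of the endoplasmic reticulum, was 187-fold above liver, and Slc24a2, a potassium-dependent sodium-calcium exchanger, 177-fold above muscle. Trim9, a ubiquitin ligase that acts in axon branching, had no value outside brain and was at least 162-fold higher. Sv2b, a synaptic vesicle glycoprotein, was 159-fold higher, Eno2, the neuronal enolase, 146-fold, and Septin3, a neuronal septin, 144-fold. Tmem130, a membrane protein, was at least 150-fold higher, with brain levels of 12.17 to 13.57. Every one of these genes had all brain arrays above all other arrays, and the standard errors of their differences from the mean of the other tissues lay between 0.05 and 0.09.

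Pan-neuronal genes were brain-high in 19 of the 21 measured of 24 listed, against 8.77% of all genes, with a median difference from the other tissues of 5.72. Rbfox3, the splicing factor known as NeuN, lay at 13.10, 13.33 and 13.72 in brain and at 6.36 or below elsewhere, 138-fold apart. Syt1, the calcium sensor of vesicle fusion, lay at 14.10, 14.35 and 14.69 in brain and also had clear levels of 9.23 to 9.63 in liver, so that it was 30.6-fold above liver and far more above muscle. Its levels in liver did not reach the lowest brain array. Tubb3, neuronal beta tubulin, and Elavl4, an RNA-binding protein of neurons, were the members not called. Tubb3 levels were 6.91 to 7.14 in brain and 6.57 to 7.17 in liver, a dim signal in which the tissues overlapped. Nefh, the heavy neurofilament, was brain-high by at least 4.55-fold although its lowest brain array, at 5.63, fell within the range of the other tissues.

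Genes of synaptic vesicle release were brain-high in 18 of 20 measured, of 24 listed, against 8.77% of all genes. Their median difference was 5.10. Syn1, synapsin, which tethers vesicles, lay at 12.09, 12.92 and 13.11 in brain and at 6.39 or below elsewhere (98.2-fold). Syp, synaptophysin, an abundant vesicle membrane protein, lay at 13.34, 13.79 and 14.01 in brain and at 7.20 to 7.43 in kidney (85.9-fold). Amph, amphiphysin, which acts in vesicle recycling, was 68.2-fold higher, on 1 of 2 probes. Synj1 and Bsn were not called, at 6.14 to 6.29 and 5.77 to 6.08 in brain. Both genes had a value in brain, and Bsn in brain alone, but the signals were dim and overlapped those of the other tissues.

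Receptors and transmitter enzymes followed. Of 17 measured genes of glutamatergic neurons and the postsynapse, of 20 listed, 15 were brain-high, against 8.77% of all genes. Their median difference was 4.39. Gria2, the AMPA receptor subunit that limits calcium entry, had levels of 12.64, 13.09 and 13.46 in brain and no value elsewhere (signal of 6.02 or below), at least 151-fold apart. Gria1, its partner subunit, was at least 118-fold higher, and Dlgap1, a scaffold of the postsynaptic density, was 90.0-fold higher. Nrgn, neurogranin, which binds calmodulin in dendrites, ranged from 9.99 to 12.18 within brain and was 37.6-fold higher than liver. Camk2b, a calmodulin-dependent kinase, was strong in brain (13.69, 13.97 and 14.05) but also in muscle (11.41 to 11.82). Its excess was 4.84-fold over muscle and larger over liver and kidney, with log2 differences of 8.19 and 7.88.

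GABAergic genes were brain-high in 8 of 13 measured, of 17 listed, against 8.77% of all genes, with a median of 2.58. Gad1, which makes GABA, lay at 12.59, 13.10 and 13.60 in brain with no value elsewhere, at least 176-fold higher, and Gad2, the second form of the enzyme, lay at 10.91, 11.31 and 12.71 and was at least 46.7-fold higher. Slc32a1, which loads GABA into vesicles, was at least 122-fold higher, and Sst, somatostatin of a class of interneurons, at least 116-fold. Calb2, calretinin, was at least 27.0-fold higher and varied widely between brain arrays, from 8.64 to 12.57. Neuropeptide and dense core granule genes were brain-high in 11 of 16 measured, of 18 listed, against the same 8.77%. Scg5, a chaperone of a prohormone convertase, was 33.7-fold above kidney, Chgb and Scg2, granins of the secretory granule, were at least 48.1-fold and 45.9-fold higher, and Cpe, which trims peptide hormones, was 9.51-fold above muscle.

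None of 10 measured monoaminergic and cholinergic genes, of 13 listed, was called, and their median difference was 0.14. Over all genes 8.77% were brain-high and 3.02% brain-low. In brain these transmitters are made by small groups of neurons, whose part in these levels was not tested. Tph2, the serotonin-making enzyme of neurons, lay at 6.05, 6.25 and 8.75 in brain and at 5.79 or below elsewhere. Its 2 highest values were those of XmO pools 1 and 2, at 8.04 and 8.75, and all brain arrays lay above all others although the difference from the next tissue did not pass the 2-fold test. Slc6a3, the dopamine transporter, ranged from 5.53 to 8.02 in brain and overlapped the other tissues. Ddc, which completes dopamine and serotonin synthesis, lay at 7.47 to 8.48 in brain, below liver (11.15 to 11.53) and kidney (12.47 to 12.68) and above muscle (6.21 to 6.84).

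**Figure D2:**
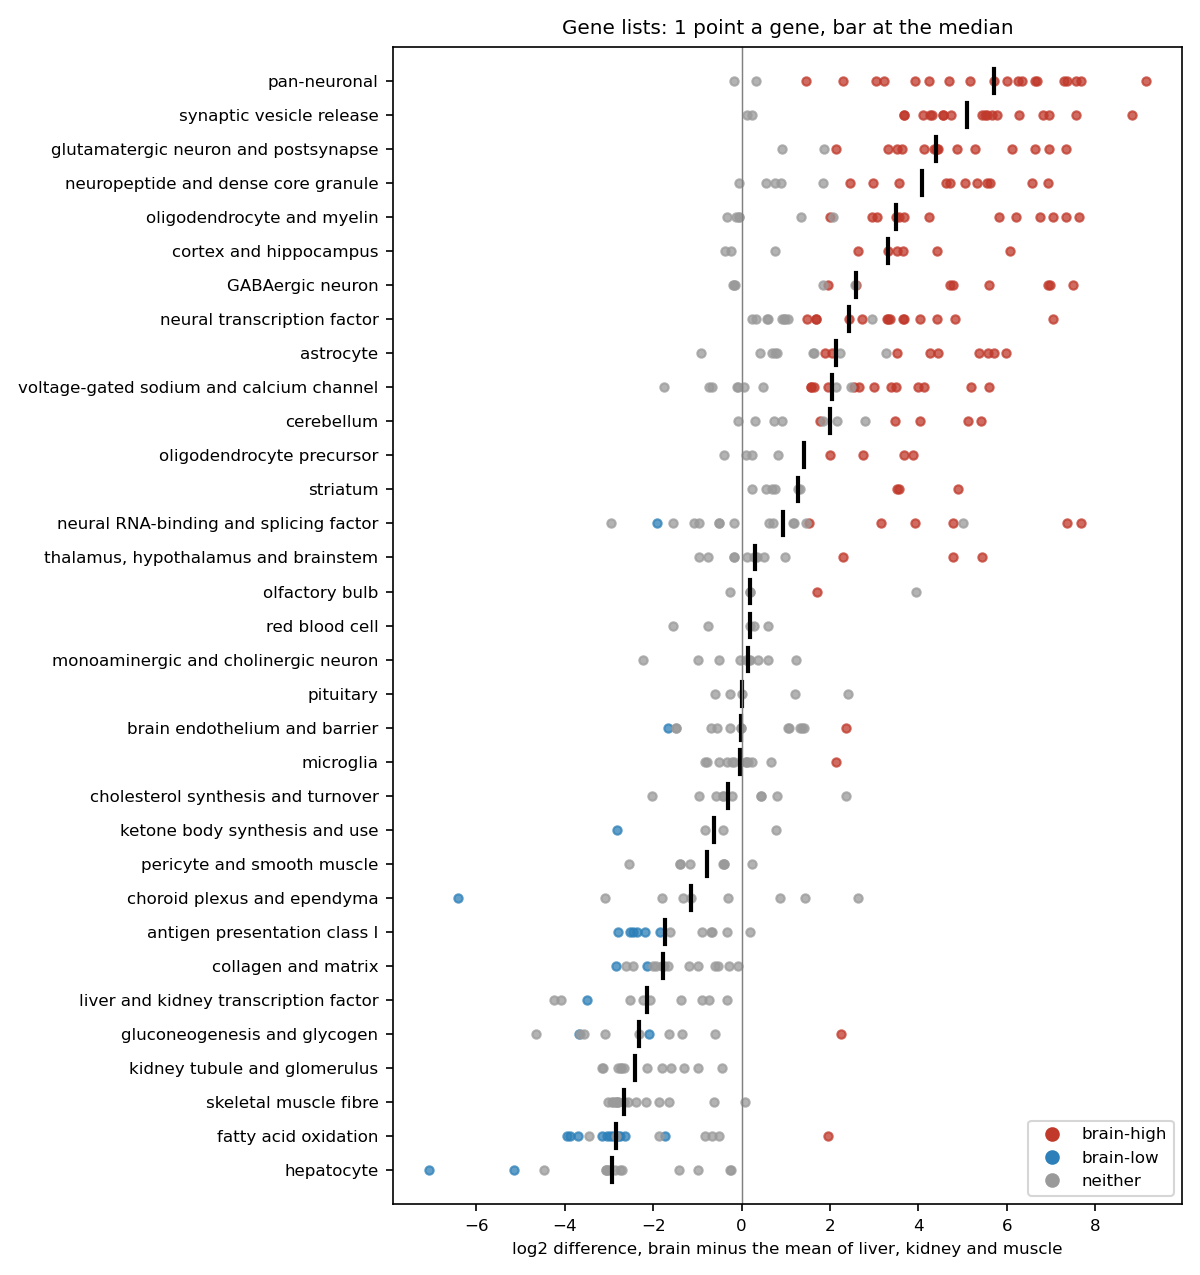
Log2 difference of brain from the mean of liver, kidney and muscle (horizontal axis) for each measured gene of 33 lists, with 1 point a gene, red for brain-high, blue for brain-low and grey for neither, and a bar at the list's median. The pan-neuronal and synaptic vesicle lists lie highest, with medians of 5.72 and 5.10, the monoaminergic and cholinergic list is near 0, and the fatty acid oxidation and hepatocyte lists lowest, at -2.85 and -2.93.

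Glial lists were less uniform. Oligodendrocyte and myelin genes were brain-high in 13 of 19 measured, of 22 listed, against 8.77% of all genes. Their median difference was 3.5. Cldn11, the claudin that seals myelin, lay at 13.19, 13.88 and 14.49 in brain and was 109-fold above muscle. Mag, myelin-associated glycoprotein, spread from 11.46 to 13.63 within brain and was 64.2-fold above muscle. Olig1, a transcription factor of the lineage, was 121-fold higher and Omg, oligodendrocyte myelin glycoprotein, at least 107-fold. Among precursor genes 4 of 8 measured, of 9 listed, were brain-high, against the same 8.77%. Bcan, brevican of the brain's matrix, was 13.4-fold higher, and Sox10, a transcription factor of glia, was 5.57-fold above muscle, in which it had levels of 7.49 to 8.49.

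Astrocyte genes were brain-high in 9 of 18 measured, of 20 listed, against 8.77% of all genes, with a median of 2.14. Aldoc, the brain aldolase, lay at 13.43, 13.79 and 14.08 in brain and at 8.56 or below elsewhere (42.5-fold). Gjb6, a gap junction protein of astrocytes, was 47.6-fold higher, Slc1a3, a glutamate transporter, 13.4-fold above muscle, and Mt3, the brain metallothionein, at least 38.5-fold. Among the genes not called were Apoe, an apolipoprotein, at 11.80 to 12.42 in brain and 14.44 to 14.56 in liver, and Glul, glutamine synthetase, at 7.39 to 8.38 in brain and 8.31 to 8.67 in liver. Both genes were above kidney and muscle in their median and below liver.

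Of 12 measured microglial genes, of 15 listed, only Cx3cr1 was brain-high, a share near the 8.77% of all genes, and the median difference was -0.04. Cx3cr1, the fractalkine receptor, lay at 7.71, 8.59 and 8.98 in brain and at 6.73 to 7.12 in kidney, the next tissue (3.04-fold). The complement gene C1qc, which tissue macrophages also express, lay at 7.39 to 8.18 in brain, at 9.68 to 9.96 in liver and at 8.26 to 8.77 in muscle, so that brain overlapped only kidney (7.47 to 7.95). Of 14 measured genes of brain endothelium and barrier, of 15 listed, 1 was brain-high and 1 brain-low, again near the 8.77% and 3.02% of all genes. Slco1c1, which carries thyroid hormone across the blood-brain barrier, lay at 7.59, 8.01 and 8.49 in brain with no value elsewhere, at least 5.10-fold higher. Pecam1, an adhesion molecule of all endothelia, lay at 7.93 to 8.32 in brain against 9.32 to 9.55 in liver, 2.28-fold lower, on 1 of 3 probes, a call that was not made under median scaling, on the submitters' normalised values or on the mean of its probes. None of 8 pericyte and smooth muscle genes, of 9 listed, was called. Of 5 measured genes of red cells, of 8 listed, none was called and the median difference was 0.20. Hbb-bs, a beta globin, lay at 13.87 to 14.89 in brain and 13.35 to 15.13 elsewhere.

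Channels, transcription factors and RNA-binding proteins were split. Voltage-gated sodium and calcium channel genes were brain-high in 13 of 22 measured, of 28 listed, against 8.77% of all genes. Scn2b, a sodium channel beta subunit, was 36.5-fold higher, Scn1a, an alpha subunit, at least 36.3-fold, Scn2a 16.1-fold, and Cacng2, stargazin, which traffics AMPA receptors, at least 15.6-fold. Neural transcription factors were brain-high in 14 of 23 measured, of 27 listed, with a median of 2.44. Bcl11a, a zinc finger factor of cortical neurons, was at least 28.2-fold higher, and Neurod2, a helix-loop-helix factor of excitatory neurons, at least 20.6-fold. Of 10 measured factors of liver and kidney, of 15 listed, 1 was brain-low, against 3.02% of all genes. Hnf4a, their nuclear receptor, lay at 6.10 to 6.35 in brain and 11.95 to 12.54 in liver. Neural RNA-binding and splicing factors were brain-high in 6 of 20 measured, of 24 listed, also above the 8.77% of all genes. Rbfox1, a splicing factor shared by neurons and muscle, lay at 13.51, 13.71 and 13.75 in brain and 13.14 to 13.39 in muscle. Its brain arrays were all above the muscle arrays, but by 1.33-fold, and it was not called.

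Many neuronal genes carry RE1, the element bound by the repressor REST, which keeps them silent in other tissues. Its core, AGCACC and GGACAG with any 2 bases between them, searched on both strands with 10 other motifs in the RefSeq windows of GRCm38.p6 from 250 bases before to 50 after a gene's start, were present for 8 of the 931 brain-high genes that have a window (0.859%), 0 of 323 brain-low genes and 12 of 10896 measured genes (0.11%). Over all windows of the same 300 bases 17 of 32851 (0.0518%) hold them. The 8 stretches are shown because they are the promoters of brain-high genes in which the core was found, each read along the strand of the motif, with the core in capitals and 8 bases on either side.
Fbll1 chr11:35799051-35799080, plus strand: gtccagtcAGCACCAGGGACAGctacctca
Gad2 chr2:22622156-22622185, plus strand: gctgtggtAGCACCCTGGACAGcgcgttcc
Gria2 chr3:80802984-80803013, plus strand: tcgattttAGCACCGCGGACAGcgctttgg
Osbp2 chr11:3774786-3774815, plus strand: accgcttcAGCACCGCGGACAGcggccagc
Robo2 chr16:75447348-75447377, minus strand: ttacccttAGCACCACGGACAGagcactaa
Scamp5 chr9:57468190-57468219, minus strand: gaatatttAGCACCACGGACAGctcctgca
Sptbn4 chr7:27396275-27396304, plus strand: gcggctccAGCACCACGGACAGttcccggt
Ttc9b chr7:27653934-27653963, minus strand: tgagcatcAGCACCGGGGACAGcgcgccgc

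Apart from Gad2 and Gria2 these genes were chosen after their values were seen. Scamp5, a carrier protein of secretory membranes, lay at 12.93, 13.13 and 13.26 in brain and was 7.91-fold above kidney. Ttc9b lay at 10.95, 11.58 and 11.94 and was at least 52.1-fold higher, with no value outside brain. Fbll1, a relative of the nucleolar protein fibrillarin, was at least 10.7-fold higher, and Sptbn4, the spectrin of the axon initial segment, at least 7.42-fold. Osbp2, an oxysterol-binding protein, was 4.27-fold and Robo2, an axon guidance receptor, 3.80-fold above kidney, the latter on 1 of 6 probes and not called on their mean. The shorter stretch TTCAGCACC, which overlaps the RE1 consensus, was found for 1.5% of brain-high and 0.496% of measured genes. The right part of the consensus, GGACAG followed by CGCC, was found for 0.322% and 0.294%, and TGACGTCA, the cAMP response motif, for 3.97% and 3.13%. Of general promoter motifs, GGGCGG, the Sp1 motif, was in 68.4% of brain-high, 66.3% of brain-low and 61.7% of measured genes, and TATAAA in 10.3%, 9.91% and 11.3%. A match describes letters in a window, and binding was not measured.

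Families of closely related genes were compared member by member. Of 22 families listed 20 had more than 1 member measured, and 15 of these held a brain-high member beside one that was not. In 4 families a brain-high member stood beside a brain-low one. Of 64 members measured, 21 were brain-high and 4 brain-low, against 8.77% and 3.02% of all genes. The families were chosen with earlier results of these data known, so these counts do not describe related genes in general. Against the 440-fold excess of Snap25, its ubiquitous relative Snap23 lay at 6.98, 7.22 and 7.40 in brain and at 9.13 or above elsewhere, 4.31-fold lower than in liver. The v-SNARE Vamp2 was 12.4-fold higher and Vamp8, which acts in secretion outside the nervous system, 3.40-fold lower than in muscle. Among glycogen phosphorylases, Pygb, the brain form, was 3.35-fold above kidney and Pygl, the liver form, lay at 6.36 to 6.81 in brain and 12.14 to 12.33 in liver, and was 5.84-fold lower than in kidney, the next lowest tissue. The beta tubulins Tubb4a and Tubb5 were 20.9-fold and 4.73-fold higher, while Tubb6 was 2.95-fold lower than in kidney. The low calls of Snap23, Vamp8 and Tubb6 were not made on the submitters' normalised values.

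Enzymes of glycolysis and energy storage have forms known from muscle. Eno3, the muscle enolase, lay at 6.62 to 7.08 in brain and 14.76 to 15.05 in muscle. Ckb, brain creatine kinase, lay at 14.74, 14.80 and 14.86 in brain and 12.42 to 12.94 in kidney (4.48-fold), and its mitochondrial partner Ckmt1 was 4.52-fold above kidney, whereas Ckm, the muscle form, lay at 5.63 to 5.83 in brain and 14.45 to 14.63 in muscle. Kidney was thus the tissue closest to brain for both brain forms. Slc2a3, the glucose transporter of neurons, lay at 12.06, 12.38 and 12.45 in brain and was 21.2-fold above muscle. Slc2a1, the transporter of the blood-brain barrier, lay at 10.35 to 10.85 in brain and 9.88 to 10.47 in kidney and was not called. Hk1, the hexokinase of brain, was 2.80-fold above kidney, on 1 of 3 probes, a call that was not made under median scaling, on the submitters' normalised values or on the mean of its probes. Kif5c, a motor of axonal transport, was 111-fold higher and Dnm1, the dynamin of synaptic vesicle retrieval, 16.6-fold. Atp2b2, a plasma membrane calcium pump, was at least 7.89-fold higher, on 1 of 2 probes. Ptbp2, the neuronal form of the splicing repressor PTB, was 4.59-fold above muscle on 1 of 3 probes, a call lost on their mean.

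**Figure D3:**
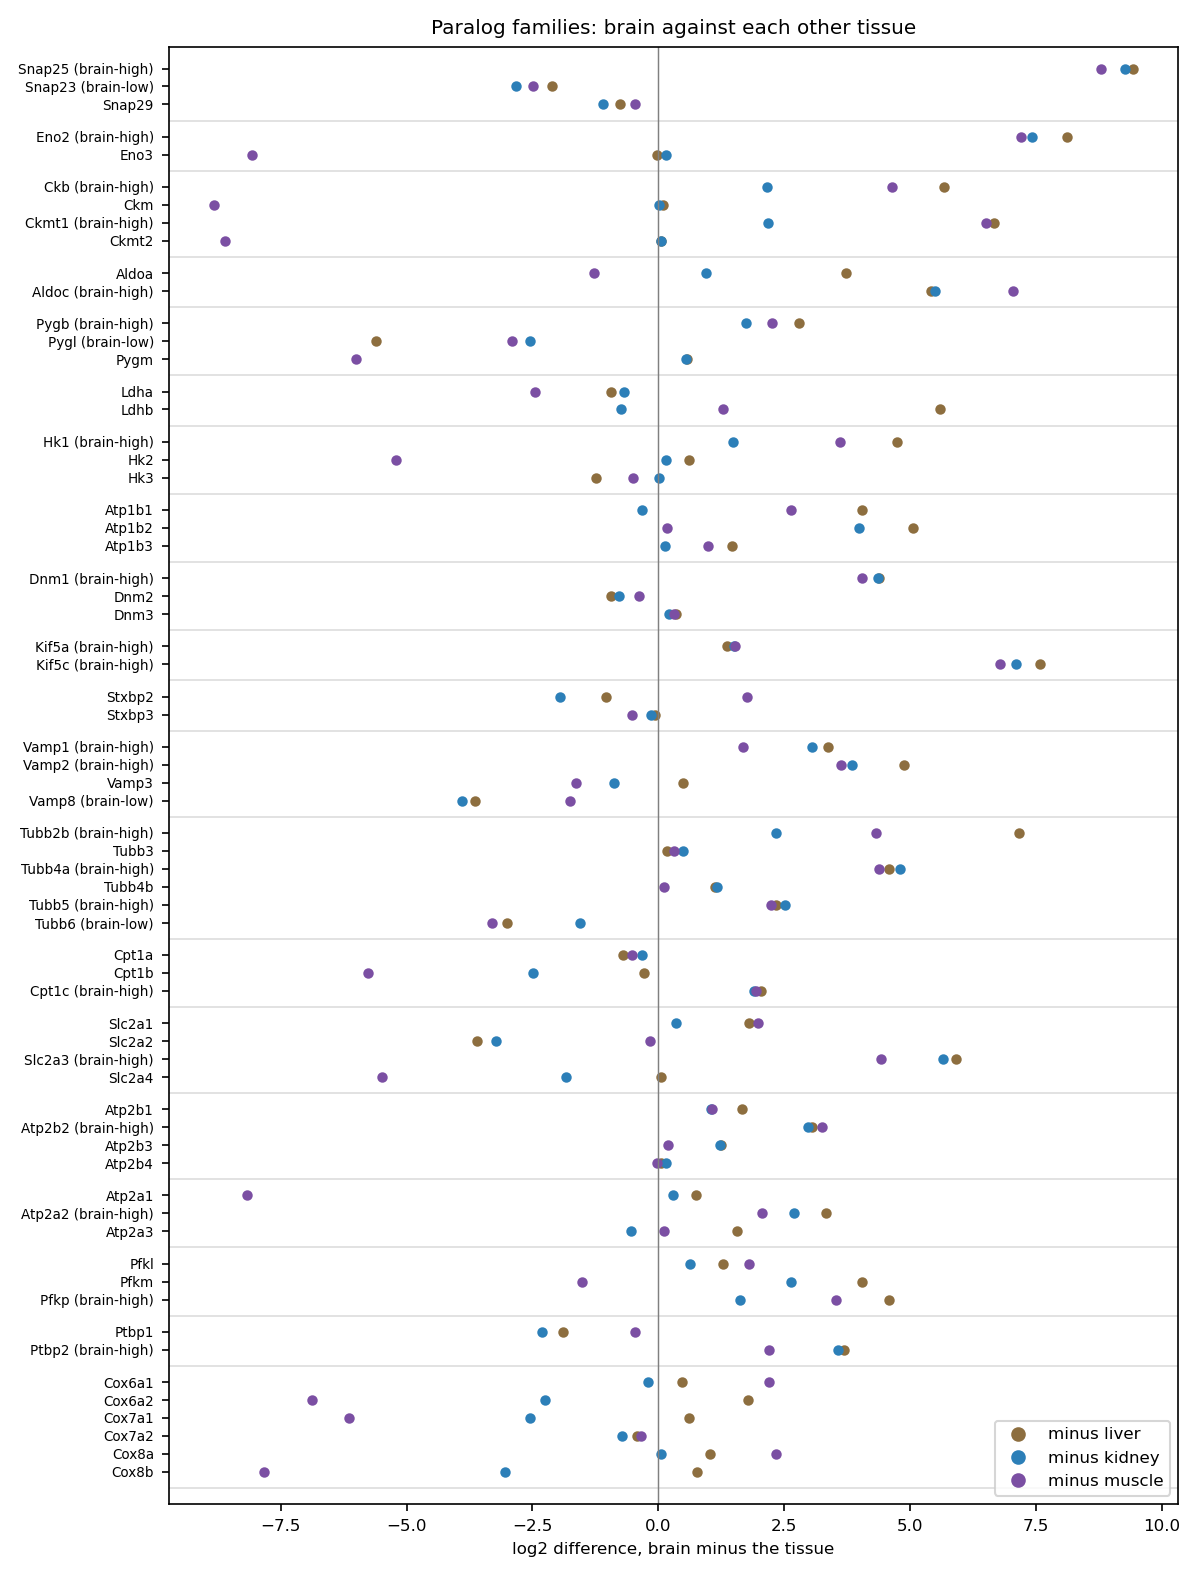
Log2 difference of brain from liver, kidney and muscle (horizontal axis, 1 point a tissue) for the measured members of 20 families of related genes. Snap25, Eno2 and Kif5c lie far to the right against every tissue, and Snap23, Pygl, Vamp8 and Tubb6 to the left, while Eno3 and Ckm are low against muscle alone.

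The genes furthest below the other tissues were led by enzymes and membrane proteins with high levels in all 3 of them. Ces1d, a carboxylesterase, lay at 5.64, 5.79 and 6.11 in brain and at 12.49 or above in all other arrays, 134-fold lower than in muscle (adjusted p = 1.2e-38). Cyp2e1, a cytochrome P450 that oxidises ethanol, had no value in brain and was at least 54.0-fold lower than in the next lowest tissue. Aqp1, a water channel of many epithelia, the choroid plexus among them, lay at 6.07, 6.34 and 7.31 and was 48.6-fold lower than in liver. Its highest brain level was in XX pool 3. Tcea3, a transcription elongation factor, was 43.9-fold lower, Ghr, the growth hormone receptor, 26.8-fold and Gstm2, a glutathione transferase, 17.9-fold. Car3, carbonic anhydrase of liver, muscle and fat, was 15.2-fold lower than in kidney, where it spread from 7.13 to 11.66. Slc43a3, a purine base transporter, was 13.6-fold lower, and Inmt, a methyltransferase of indolamines, 10.6-fold.

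Fatty acid oxidation had the most brain-low members of the 33 lists. Of 19 measured genes, of 22 listed, 12 were brain-low against 3.02% of all genes, with a median difference of -2.85. Cpt2, which completes the entry of fatty acids into mitochondria, lay at 7.85, 8.26 and 8.71 in brain and at 11.78 or above elsewhere, 12.3-fold lower than in muscle. Acadm, medium-chain acyl-CoA dehydrogenase, lay at 9.10, 9.28 and 9.40 and at 12.45 or above elsewhere (9.89-fold), and Acaa2, which cleaves the last bond of the cycle, was 8.90-fold lower. Brain and the other tissues did not overlap for these 3 enzymes. The only brain-high member was Cpt1c, the neuronal carnitine palmitoyltransferase-like protein of the endoplasmic reticulum, at 7.34, 7.59 and 8.0 with no value elsewhere (at least 3.73-fold), a call lost on the mean of its 2 probes. Acat1, a thiolase of ketone body metabolism, was 5.33-fold lower, and Oxct1, which lets tissues burn ketone bodies, lay at 12.25 to 12.64 in brain, above liver (7.87 to 8.07) and below kidney (14.18 to 14.39), and was not called. Of 4 measured ketone body genes, of 8 listed, 1 was brain-low. Of 11 measured gluconeogenesis and glycogen genes, of 13 listed, 2 were brain-low and 1 brain-high, and none of 10 measured cholesterol genes, of 16 listed, was called.

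Antigen presentation by class I molecules was low in 6 of 12 measured genes, of 14 listed, against 3.02% of all genes, with a median of -1.74. B2m, the light chain of class I molecules, lay at 10.36, 10.74 and 10.83 in brain, 11.95 to 12.66 in muscle and 14.26 to 14.47 in liver, 3.13-fold below muscle. H2-K1, a class I heavy chain, was 2.60-fold lower than in the next tissue and Psmb8 and Psmb9, subunits of the immunoproteasome, 2.92-fold and 2.51-fold. These 4 genes had no overlap between brain and any other tissue, and the calls of H2-K1, Psmb8 and Psmb9 were not made on the values the submitters normalised, nor that of Psmb8 under median scaling or that of H2-K1 on the mean of its 2 probes. Collagen and matrix genes had a median of -1.77, with 2 of 16 measured brain-low against 3.02% of all genes, Dcn, decorin, 4.12-fold and Bgn, biglycan, 3.35-fold, of which Bgn was not called on the submitters' values. Endothelial and macrophage genes are given above, and their part in these levels was not tested.

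Brain arrays differed among themselves by amounts that depended on the list. Over 1192 brain-high genes the median SD between brain arrays was 0.265, and 11 of these genes had an SD over 1. Over all genes the median SD was 0.137. That median includes genes near background, so the medians are not matched for level. Mean levels of the pan-neuronal list (21 genes) differed by 0.29 between the highest and lowest brain array and those of the synaptic list (20 genes) by 0.31. The cerebellum list (12 genes) differed by 3.03, the striatum list (9 genes) by 2.18 and the choroid plexus list (9 genes) by 1.72. The pituitary list differed by 2.39, over only 4 genes with a value in brain, of which 2 were highest in XmO pool 3. Not every regional list varied widely. The thalamus, hypothalamus and brainstem list differed by 1.48, the cortex list by 0.72 and the olfactory bulb list by 0.25. Of the 5 olfactory bulb genes, Eomes, Th and Omp lay near the mean of the other tissues (differences of 0.20, 0.19 and -0.26). Cdhr1, of the same list, ran from 6.8 to 8.5 in brain. Among lists of cell types, the myelin list differed by 1.31 and the red cell list by 0.83. Cbln1, a synapse organiser secreted by cerebellar granule cells, had levels of 8.94, 11.52 and 14.10 in XX pools 1 to 3, 8.57, 10.23 and 10.11 in the XpO pools and 12.48, 14.26 and 8.60 in the XmO pools. Pcp2, a Purkinje cell protein, lay at 12.62 in XmO pool 2, at 12.32 in XX pool 3 and at 5.69 in XmO pool 3, and was not called. All 12 measured cerebellar genes, of 15 listed, were highest in XmO pool 2, and 5 of them were brain-high.

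Striatal genes marked another array. All 9 measured genes, of 12 listed, were highest in XpO pool 2, among them Rgs9, a regulator of dopamine signalling, at 12.38 against 7.77 to 11.13 in the remaining arrays, and Tac1, which encodes substance P, at 11.72 against 7.82 to 10.44. XpO pool 3 was highest for 14 of 19 myelin genes, with a list mean 0.77 above that of all brain arrays, and had the highest Gfap level of 11.94. XX pool 3 was highest for 8 of 9 choroid plexus genes. Prl, prolactin of the pituitary, ranged from 5.88 in XX pool 2 to 11.74 in XmO pool 3, and Slc17a6, the vesicular glutamate transporter of thalamus and brainstem, from 9.97 in XX pool 3 to 13.21 in XX pool 2. For the cerebellum list all 3 XpO pools lay below the mean of the brain arrays. Against 8.77% of all genes, brain-high calls numbered 6 of 9 measured for cortex, 3 of 13 for thalamus, hypothalamus and brainstem, 3 of 9 for striatum and 1 of 5 for olfactory bulb genes, while none of 5 pituitary and 9 choroid plexus genes was brain-high and 1 of the latter, Aqp1, was brain-low. How much of each region went into a pool is not given in the sources used here, and its part in these levels was not tested.

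**Figure D4:**
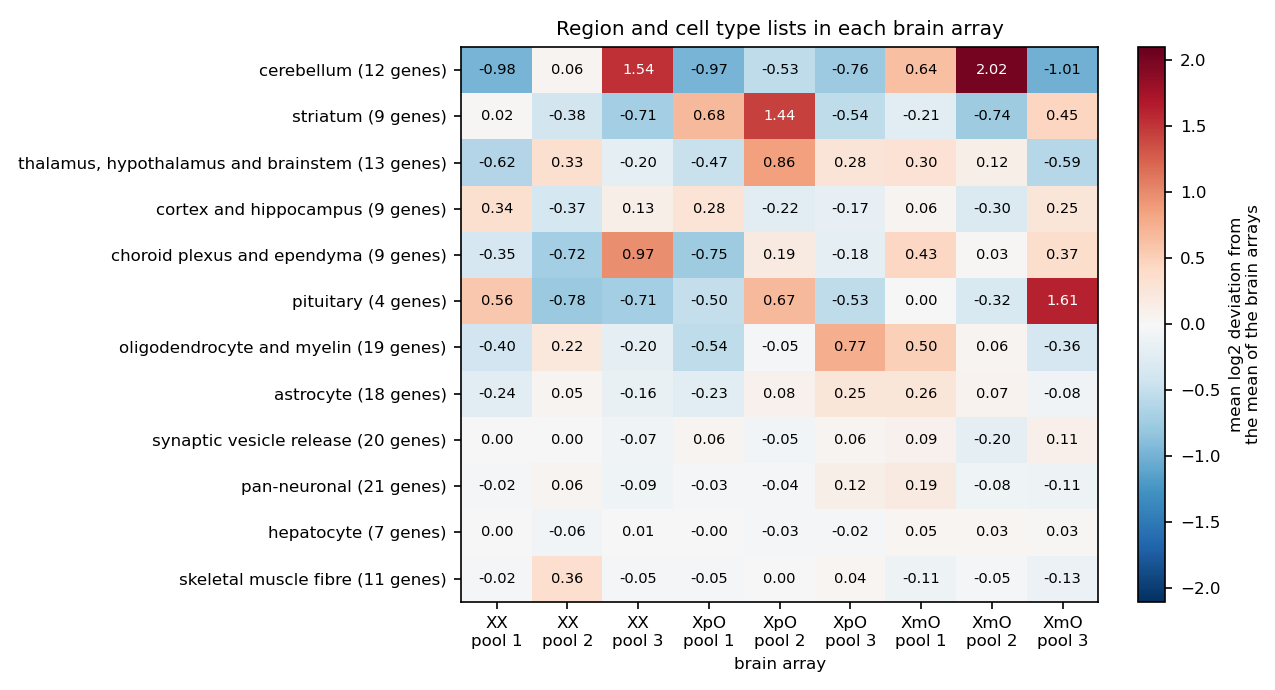
Mean log2 deviation of a list's genes in each brain array from the mean of all 9 brain arrays, as a colour and a number, for 12 lists (vertical axis) and 9 arrays (horizontal axis), over genes with a value in brain. The cerebellum list reaches 2.02 in XmO pool 2 and 1.54 in XX pool 3 and the striatum list 1.44 in XpO pool 2, while pan-neuronal and synaptic lists stay between -0.20 and 0.19.

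The brain contrast differed between genotypes for 548 of 28885 probes (1.9%, F test in limma over the 2 genotype differences, Benjamini-Hochberg, threshold 0.05), among them 68 of the brain-high (3.32%) and 6 of the brain-low probes (1.03%). Counting a genotype as apart where it lay over 2 times as far from the others as these from each other, XmO was apart for 416 of the 548, XpO for 41 and XX for 30. Without the brain arrays of XmO pool 2 and XX pool 3 the count was 311, of which 228 were among the 548. Oxr1, a protein of the oxidative stress response, chosen after its values were seen, had brain levels of 10.82, 11.06 and 10.74 in XX, 10.76, 10.76 and 10.56 in XpO and 11.50, 11.20 and 11.40 in XmO pools. Its XmO pools were the highest, and its difference from the other tissues was 1.6 in XX, 1.51 in XpO and 2.31 in XmO mice (adjusted p = 0.00078). Its brain-high call was lost without any 1 of the XmO brain arrays (adjusted p = 0.0942, 0.0616 and 0.0869 without pools 1 to 3). Cpt2 was lower in brain in all genotypes, by differences of -4.18 in XX, -3.89 in XpO and -3.59 in XmO mice (adjusted p = 0.0274). Cartpt, a neuropeptide precursor, differed by 1.89 in XX, 3.81 in XpO and 2.16 in XmO mice (adjusted p = 0.0108), with its highest brain level of 10.48 in XpO pool 2, the array with the highest striatal levels.

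The share of brain-high genes was higher on the X chromosome than on any autosome. Of 440 measured X-linked genes 64 were brain-high (14.5%) and 7 brain-low (1.59%), against 1128 (8.59%) and 403 (3.07%) of 13125 autosomal genes. Among the autosomes the share of brain-high genes ran from 5.68% on chromosome 19 to 12.1% on chromosome 15. These shares are a description, with no test, since neighbouring and related genes are not independent. Zcchc18, a zinc finger gene (chrX:136992379-136998472), lay at 14.05, 14.40 and 14.60 in brain and at 6.52 to 7.28 in kidney, 178-fold apart, and Syn1 and Syp followed. Tro, trophinin, of the MAGE family, lay at 11.18, 11.55 and 11.96 and was 41.4-fold higher, Magee1, of the same family, lay at 12.72 to 13.22 and was 25.7-fold higher, and Septin6 was 24.8-fold higher. All 6 had every brain array above every other array.

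**Figure D5:**
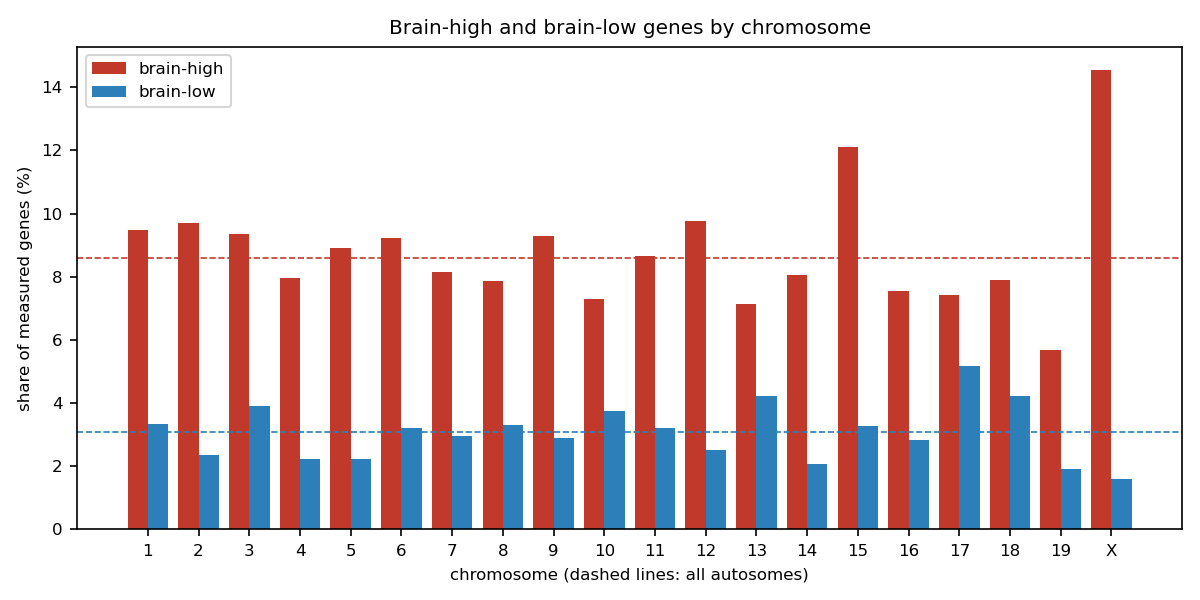
Share of measured genes (vertical axis, percent) that were brain-high (red) or brain-low (blue) on each chromosome, with dashed lines at the share over all autosomes (8.59% and 3.07%). The X chromosome has the tallest brain-high bar, 14.5%, followed by chromosome 15 with 12.1%.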

How the data were processed

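Total RNA of brain, liver, kidney and skeletal muscle was hybridised to 36 arrays that hold 46632 probe identifiers. The deposited bead intensities were summarised by the authors in BeadStudio, and the authors' quantile normalisation was done on log values with lumi. The authors' normalised values, whose log base is not given and which were read as log2 from their range, were used as an alternative and for blanks, read as not detected in a tissue. For this report a floor of 1 was put on the intensities before the log2 step, and quantile normalisation used 35 arrays with no background correction, which understates differences of dim probes. Tested were the 28885 probes with a value in at least 1 tissue. Genes came from the array annotation matched to the mouse gene table of GRCm38.p6 (21014 probes with 1 symbol, 6 with several, 7865 with none, 20986 matched).

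Tissue was the only factor in limma 3.58.1 (R 4.3.3), fitted over all tissues, with eBayes, treat at a log2 difference of 1 and Benjamini-Hochberg adjustment. Figures were drawn with matplotlib 3.10.9 under Python 3.11.15, and tables were handled in pandas 2.3.3. The fit was tested on simulated data. A fold is that of the means. Where the next tissue (for brain-low genes, brain) had no value, it is a bound against the higher of the signal and the lowest signal among probes with a value, array by array, written "at least". A probe blank in the table but not next to brain is still used at its signal.

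Named were Snap25, Mbp and Gfap, the 15 brain-high and 12 brain-low genes furthest from the next tissue, up to 5 genes of largest and 2 of smallest difference in a list, paralog families, the 12 brain-high genes of largest SD between brain arrays and the 6 top X-linked genes. Not all of these are printed. Members, lists, motifs and alternatives were chosen with earlier results of these data known, so no list is independent evidence.

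Per the study's methods the mice were pooled by genotype into 9 numbered groups, so the pool number pairs tissues of the same mice. Deviations of same-numbered pools in brain and another tissue had correlations of -0.0526 to 0.158 (median 0.0599, 26 pairs, 4 over 0.1). P-values measure the spread between pools, genotype differences included, with 1 estimate for each probe shared by all tissues. For genes that vary mainly in brain this estimate is smaller than the spread within brain. Cbln1, for example, had an SD of 2.24 in brain and of 0.157, 0.192 and 0.164 in liver, kidney and muscle. Alternatives were other normalisations, filters and thresholds, a pool block, a genotype term, and leaving out arrays or tissues.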

Additional observations from a re-analysis of the deposited data

Results flagged for a closer look

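For 9 named genes the highest or lowest brain array lay far from the other 8, by a gap that took a larger share of the range over 9 arrays than Dixon's limit allows. Chance alone does this for about 1 in 20 groups of arrays, and here it held for 899 of 13588 genes (6.62%), of which 382 had XmO pool 2 as the distant array, and for 114 of the 1192 brain-high genes (9.56%). XmO pool 2 was the lowest array for Syn1 at 12.09 (share of the range 0.614), for Syp at 13.34 (0.505), for Dnm1 at 9.65 (0.601) and for Sst at 11.42 (0.495). XmO pool 1 was the lowest for Ptbp2 at 9.89 (0.646) and for Pecam1 at 7.93 (0.615), and the highest for Slc2a1 at 10.85 (0.522). XpO pool 2 was the highest for Gad2 at 12.71 (0.577), and XpO pool 3 the lowest for Vamp2 at 12.72 (0.572).

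The difference of brain from the other tissues depended on genotype for 4 named genes (limma, F test, Benjamini-Hochberg). Oxr1 (adjusted p = 0.000779), Cartpt (adjusted p = 0.0108) and Cpt2 (adjusted p = 0.0274) are described above. For Tph2 the difference was 0.67 in XX, 0.84 in XpO and 2.18 in XmO mice (adjusted p = 0.0292), and its 2 highest brain levels were both of XmO pools.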

How the results depend on the processing

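Brain-high calls of 2049 probes and brain-low calls of 582 became 2323 and 353 under median scaling. The authors' normalised values were tested only for the 17020 probes with values in all tissues, over all 36 arrays. They gave 647 and 186 calls. Of the calls made here, 755 high and 558 low were among these probes, and 616 and 181 were kept. The same probes under the normalisation used here gave 752 brain-high and 554 brain-low calls. A log2 threshold of 2 gave 990 and 103, and one of 0.5 gave 3293 and 1607. Brain-low calls numbered 914 without liver, 1527 without muscle and 202 with the muscle array of XpO pool 3. No probe was called in the opposite direction under any of these settings. Leaving out 1 brain array gave 2021 to 2087 high and 571 to 584 low calls. With the pool as a replicate block the calls were 2054 and 588, and no call of a named gene was lost. Against the plain mean, 41.1% of calls were above it, and 50.2% under median scaling. Over probes with values in all tissues the share was 34.3% under the normalisation used here and 65.4% on the authors' values. The probes below the mean of the other tissues numbered 5309 on the authors' values, and the probes above the mean of the other tissues 5104 over probes with values in all tissues. The median over all probes was -0.101. Over probes with values in all tissues it was -0.188 under the normalisation used here and 0.118 on the authors' values. Calls by genotype fell from 548 to 311 without the brain arrays of XmO pool 2 and XX pool 3. A few uncalled genes changed the sign of their difference from the mean: Elavl4 to 0.13 on the authors' values and 0.52 on the mean of its probes, Hbb-bs to -0.21 on the authors' values, -0.23 under median scaling, -0.0028 on the mean of its probes and -0.0137 without liver, Apoe to -0.0335 without kidney, Oxct1 to -1.09 without liver, and Ckm and Eno3 to 0.0519 and 0.0565 without muscle. The cause was not tested. Dim probes near background limit what can be said of uncalled genes.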
